A study of Homo sapiens with 18 samples.

Results

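The 34 genes described here are regulators and transcriptional targets of p53, picked by symbol from a list of such genes and leaving out the BCL2 family. All 34 were found among the 44016 features of the count table, and all 34 were among the 22382 genes with enough counts to be tested. Their mRNA was measured by poly(A) sequencing in A549, a widely used cell line from a human adenocarcinoma of the lung. A549 is known to lack CDKN2A, which encodes p16 and the p53 stabiliser ARF. There were 6 groups of 3 libraries each: a stable S100A16 knockdown (KD) given 100 µM hydrogen peroxide (H2O2) for 2 h, the same KD untreated, a stable hnRNPM KD untreated, a stable MagoHB KD untreated, wild type (WT) given the same H2O2, and WT untreated. Every KD was compared with unmodified WT cells, so a change due to the silenced gene and a change due to making a stable line cannot be told apart. How the knockdowns were made, and from how many clones, is not stated in the sources used here. S100A16 belongs to the S100 proteins, which bind calcium. hnRNPM binds RNA in the nucleus and acts in splicing. MagoHB is part of the complex that marks exon junctions on spliced mRNA.

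p53 is a transcription factor held at a low level by the ubiquitin ligase MDM2 and its partner MDM4. DNA damage, oxidative stress and faults in ribosome production can free it, and it then switches on genes that stop the cell cycle, repair DNA, sensitise cells to death ligands and adjust metabolism. Among those genes is MDM2 itself, which closes a negative feedback loop. The arrest is carried largely by CDKN1A, which encodes p21, and p21 in turn leads to repression of cell cycle genes through the DREAM complex.

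The p53 response element is a pair of decamers. It was searched for on both strands of the RefSeq promoter windows (build GRCh38.p14, from 250 bases before a transcript start to 50 after it), with at most 3 mismatches, an unchanged core in both decamers and a spacer of at most 13 bases. Windows existed for 26 of the 34 genes, 41 windows in all. An element was present in 5 of the 41 windows (12.2%), against 4.49% of all 35116 windows. These 5 are printed because the genes behind them did not move alike across the knockdowns, as the later values show; capitals mark the element, and each sequence is read 5′ to 3′ on the gene's strand. They are SESN1 (chr6:109008989-109009067, minus strand), FAS (chr10:88991279-88991358, plus), DDB2 (chr11:47214979-47214999, plus), RPS27L (chr15:63157497-63157576, minus) and AEN (chr15:88621276-88621339, plus).
SESN1: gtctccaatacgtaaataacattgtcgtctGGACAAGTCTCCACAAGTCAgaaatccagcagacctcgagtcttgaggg
FAS: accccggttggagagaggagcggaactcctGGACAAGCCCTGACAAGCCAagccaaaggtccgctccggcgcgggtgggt
DDB2: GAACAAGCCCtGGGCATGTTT
RPS27L: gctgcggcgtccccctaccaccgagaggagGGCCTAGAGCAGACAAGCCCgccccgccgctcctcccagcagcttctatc
AEN: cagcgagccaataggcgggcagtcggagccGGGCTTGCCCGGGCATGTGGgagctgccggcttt
The DDB2 element matched at all 20 positions, with 1 spacer base between the decamers, and began 5 bases after the transcript start. FAS and AEN differed from the element at 2 positions each, and SESN1 and RPS27L at 3 each. A match describes the letters only and shows neither binding nor a cause; where no match was found, these letters were absent from that window and nothing follows about p53 there.

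Library totals ran from 36612997 to 51406431 counts. Each silenced mRNA was lowest in its own line. S100A16 stood at 5.60% of WT in the H2O2-treated KD and at 7.11% in the untreated KD, HNRNPM at 20.8% in its KD, and MAGOHB at 34.8% in its KD. Epithelial markers summed to between 4896 and 9041 CPM in every library, alveolar type II markers to between 12.7 and 38.0 CPM, endothelial markers to at most 1.02 CPM and CDKN2A to at most 0.169 CPM. The epithelial sum was mostly KRT8 and KRT18. Group means of KRT19 were 0.665 to 1.07 CPM and those of EPCAM 2.82 to 5.96 CPM. The type II sum was mostly ABCA3, with group means of 14.1 to 34.2 CPM. The surfactant genes SFTPA1, SFTPA2, SFTPB and SFTPC had group means of 0 to 0.0894 CPM. The 6 fibroblast markers, mostly COL1A1 and PDGFRA, summed to between 48.2 and 117 CPM. The 5 leukocyte markers summed to between 76.4 and 156 CPM, nearly all of it CD68, a lysosomal protein gene that other cells also express, with group means of 97.3 to 145 CPM; CD3E, a defining T cell marker, was at 0 to 0.0159 CPM and PTPRC at 0.199 to 0.400 CPM. The part of these markers in the results was not tested. CPM is the share of a library's counts on the usual counts-per-1000000 scale, with TMM normalisation of the library sizes. In 3 of the 18 libraries the counts stood apart from the other replicates of the group, namely replicate 1 of the untreated S100A16 KD, replicate 3 of the hnRNPM KD and replicate 2 of the MagoHB KD (from here on MagoHB KD 2, hnRNPM KD 3 and S100A16 KD untreated 1). Chi-square per degree of freedom between one of these and another replicate of its group was 29.998 to 64.9, against 3.09 to 5.59 for the other replicate pairs. Calls of the 34 genes against WT that rest on these libraries are given with and without them. The other gene lists are given with all libraries, apart from some ranges of call counts.

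In untreated WT cells the deposited RPKM values, which correct for gene length, spanned a wide range over the 34 genes. The quinone reductase gene TP53I3 was highest at 56.2 RPKM, followed by the DNA damage sensor XPC at 40.9 RPKM. The mitochondrial quality control gene SPATA18 was lowest at 0.0705 RPKM. MDM2 lay in the middle of the order at 8.64 ± 0.175 RPKM, between EDA2R at 8.70 ± 0.764 RPKM and CDKN1A at 8.37 ± 0.169 RPKM (SD, n = 3 each), and these neighbours differed by less than the sum of their SDs. The length used is that of all annotated exons, 13269 bases for MDM2, 3579 for EDA2R and 3050 for CDKN1A, so the order depends on the annotation. Without a correction for length, untreated WT averaged 125 CPM for MDM2, 34.1 CPM for EDA2R and 27.9 CPM for CDKN1A. Over the 6 groups, the highest group mean of a gene in CPM was 1.13 to 7.24 times its lowest, with a median of 1.80 times. Levels are of bulk RNA, so a change in every cell and a change in a share of the cells cannot be told apart.

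In the untreated S100A16 KD, 23 of the 34 target genes were higher than in untreated WT and 6 were lower, by edgeR's quasi-likelihood test with Benjamini-Hochberg adjusted p under 0.05. The change reached 2-fold (log2 of 1 or more in size) for 9 genes. Their median log2 fold change was 0.50, against 0.06 over all genes tested. Among all genes 52.3% were called, 27.6% higher and 24.8% lower, while 67.6% of the 34 genes were called higher. The 9 genes past 2-fold are to be read against 14.9% of all genes past it. With both lines under H2O2, 20 were higher and 6 lower, with a median log2 fold change of 0.47, against 0.06 over all genes, of which 27.9% were called higher and 24.7% lower. Scaling by total counts alone, which shifted all log2 fold changes by 0.24 untreated and 0.18 under H2O2, gave 24 higher and 3 lower untreated and 23 higher and 3 lower under H2O2. Under that scaling the higher share of all calls was 74.0% in place of 52.7% untreated, and 70.0% in place of 53.1% under H2O2. The means in the S100A16 KD untreated and H2O2 comparisons come from different libraries of both lines. Both comparisons come from the same fit over all 18 libraries and share its estimate of the spread, so they are not independent.

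**Figure D1:**
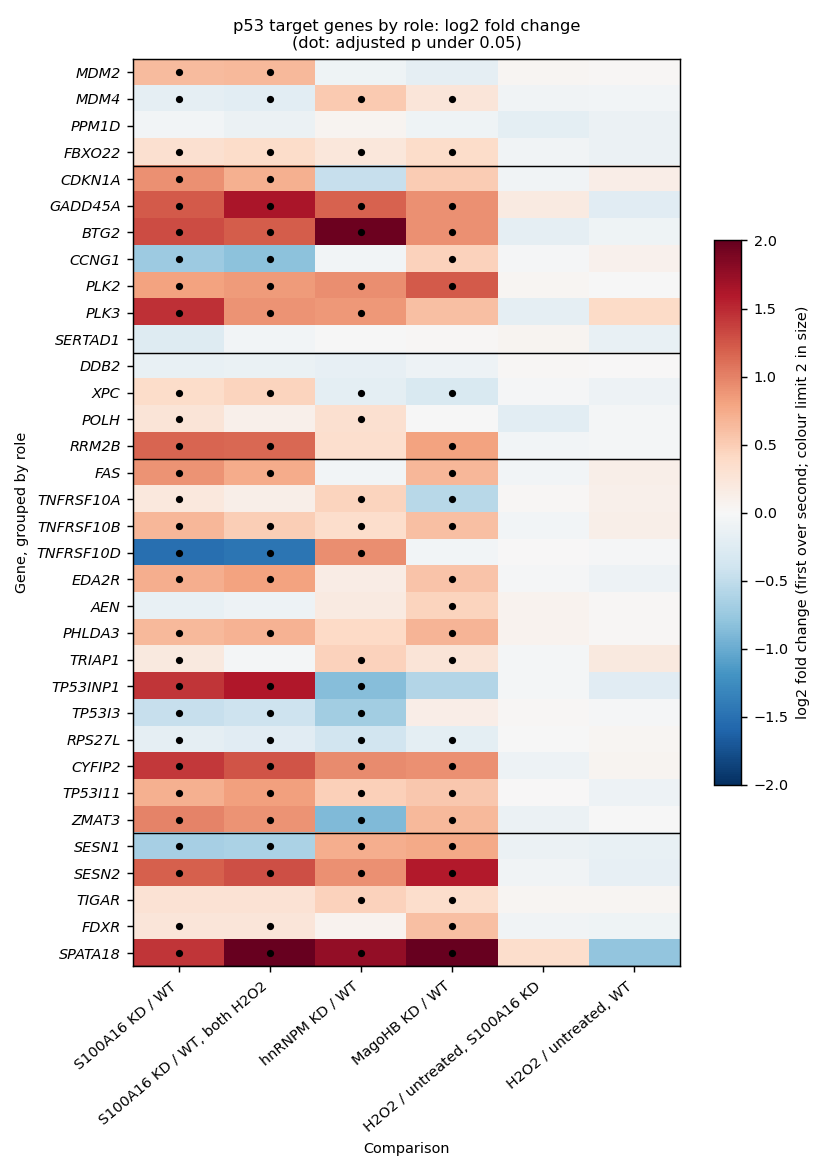
Log2 fold change of the 34 p53 target genes (rows, grouped by role from regulators of p53 at the top to metabolism at the bottom) in 6 comparisons (columns); red is higher in the first-named group, blue lower, and a dot marks an adjusted p under 0.05. The S100A16 KD columns hold 23 and 20 genes called higher, the hnRNPM KD column 17, the MagoHB KD column 21, and the H2O2 columns none.

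Of the regulators of p53, MDM2 was higher in the S100A16 KD. It had 193, 199 and 213 CPM in the H2O2-treated KD, against 131, 124 and 129 CPM in H2O2-treated WT, and 190.3, 201 and 194 CPM in the untreated KD, against 127, 128 and 121 CPM in untreated WT. Every KD library lay above every WT library, and the log2 fold change was 0.66 ± 0.18 under H2O2 (SE, adjusted p = 0.00647) and 0.64 ± 0.18 untreated (adjusted p = 0.00746). FBXO22, part of a ubiquitin ligase that acts on methylated p53, also rose, by a log2 fold change of 0.37 under H2O2 and 0.32 untreated. MDM4 was slightly lower, by -0.21 and -0.18, and its untreated value was 0.054 with an adjusted p of 0.573 under scaling by total counts alone. The MDM4 calls were lost without S100A16 KD untreated 1 or 2 or WT untreated 2 or 3, and under H2O2 without WT H2O2 2 (adjusted p = 0.0521 to 0.141). PPM1D, a phosphatase that damps p53 signalling, did not pass the test in either comparison, with log2 fold changes of -0.12 and -0.05. MDM2 kept its call without S100A16 KD untreated 1, at 0.65 (adjusted p = 0.0161).

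The genes of cell cycle arrest rose in the S100A16 KD, 5 of 7 in both comparisons, with CCNG1 lower and SERTAD1 not called. CDKN1A had 49.1, 48.0 and 52.4 CPM in the H2O2-treated KD, against 32.2, 29.9 and 29.7 CPM in H2O2-treated WT, and 47.6, 55.2 and 54.9 CPM in the untreated KD, against 27.7, 28.8 and 27.3 CPM in untreated WT. The groups did not overlap in either comparison. The log2 fold change of CDKN1A was 0.70 ± 0.26 under H2O2 (adjusted p = 0.0363) and 0.91 ± 0.26 untreated (adjusted p = 0.00953). Under H2O2 its adjusted p was 0.0629 to 0.0950 when any 1 of the 6 libraries was left out, with log2 fold changes of 0.65 to 0.73.

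GADD45A encodes a stress sensor that binds p21 and PCNA. It had 84.7, 83.6 and 91.2 CPM in the H2O2-treated KD, against 28.9, 27.3 and 27.6 CPM in H2O2-treated WT, and 74.7, 75.1 and 79.9 CPM in the untreated KD, against 32.4, 34.2 and 32.0 CPM in untreated WT. The KD libraries were all high, at 3.10 times the WT mean under H2O2 and 2.33 times untreated (log2 fold change 1.63 ± 0.30, adjusted p = 0.000547, and 1.22 ± 0.30, adjusted p = 0.00384). BTG2, an antiproliferative factor that recruits the mRNA deadenylation machinery, had 53.8, 49.6 and 52.5 CPM in the H2O2-treated KD, against 23.0, 22.7 and 21.7 CPM in H2O2-treated WT, and 55.0, 64.6 and 57.3 CPM in the untreated KD, against 24.0, 23.7 and 24.2 CPM in untreated WT. Again no KD library overlapped WT, with log2 fold changes of 1.21 ± 0.32 (adjusted p = 0.00632) and 1.30 ± 0.32 (adjusted p = 0.00375).

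The polo-like kinase genes rose too. PLK3 had 6.73, 9.05 and 7.89 CPM in the untreated KD, against 3.12, 2.91 and 2.57 CPM in untreated WT, a log2 fold change of 1.46 ± 0.24 (adjusted p = 6.09e-05), and 0.89 under H2O2. PLK2 rose by 0.86 under H2O2 and 0.80 untreated. CCNG1, the cyclin G1 gene, went the other way: it averaged 33.1 ± 0.524 CPM in the H2O2-treated KD, against 58.7 ± 2.15 CPM in H2O2-treated WT, and 33.6 ± 2.00 CPM in the untreated KD, against 55.4 ± 2.95 CPM in untreated WT (SD, n = 3 each). Its log2 fold changes were -0.83 and -0.72, with adjusted p = 2.83e-07 and 1.72e-06.

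**Figure D2:**
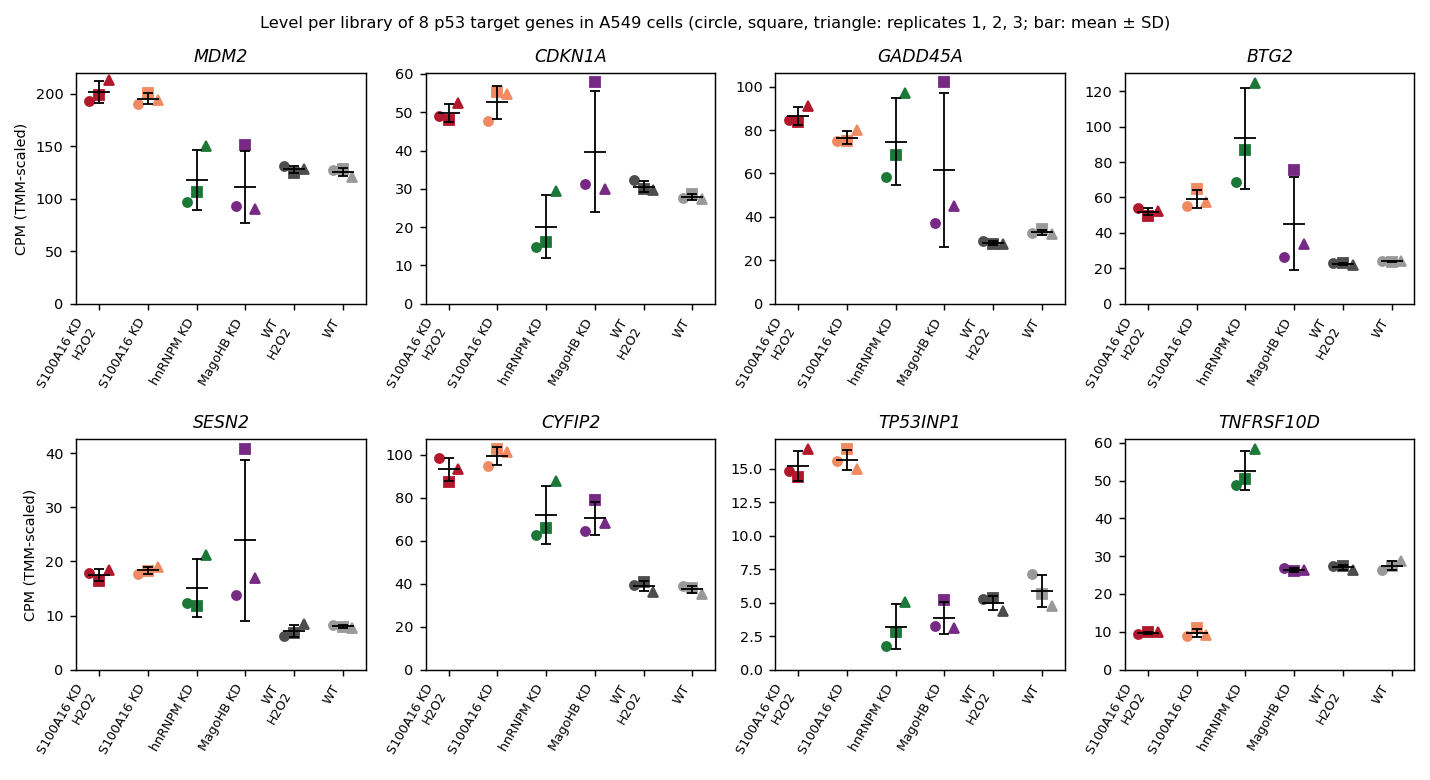
CPM per library (points; circle, square and triangle are replicates 1, 2 and 3) of 8 p53 target genes in the 6 groups, with the mean ± SD of each group (bars, n = 3). The S100A16 KD libraries sit above WT for MDM2, CDKN1A, GADD45A, BTG2, SESN2, CYFIP2 and TP53INP1 and below it for TNFRSF10D, and the square of the MagoHB KD and the triangle of the hnRNPM KD stand above the other replicates of their groups for most genes.

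Of the repair genes, RRM2B, which encodes the p53-induced subunit of ribonucleotide reductase, changed most in the S100A16 KD. It had 51.2, 53.5 and 57.5 CPM in the H2O2-treated KD, against 22.5, 24.9 and 25.6 CPM in H2O2-treated WT, so the groups lay far apart (log2 fold change 1.152 ± 0.17, adjusted p = 3.55e-05). The untreated difference was 1.16 ± 0.17 (adjusted p = 3.11e-05). XPC rose by a log2 fold change of 0.45 under H2O2 and 0.36 untreated. POLH, the gene of a translesion DNA polymerase, was called higher untreated at 0.26 (adjusted p = 0.0304), and its adjusted p was 0.0522 to 0.112 when any 1 library was left out. DDB2, whose product recognises ultraviolet damage, was not called, at -0.13 and -0.14, although its 3 KD libraries lay below its 3 WT libraries in both comparisons.

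The death receptor genes did not move as a block in the S100A16 KD. FAS rose by a log2 fold change of 0.74 ± 0.25 under H2O2 (adjusted p = 0.0244) and 0.90 ± 0.25 untreated (adjusted p = 0.00805). The call of FAS under H2O2 was lost without any 1 library other than S100A16 KD H2O2 2 (adjusted p = 0.0513 to 0.0744). TNFRSF10B, which encodes the TRAIL receptor DR5, rose by 0.49 and 0.66, and EDA2R by 0.81 and 0.73. TNFRSF10A, the gene of the TRAIL receptor DR4, was called higher untreated alone, at 0.21 (adjusted p = 0.0211), and was 0.12 under H2O2 (adjusted p = 0.159); the interaction test, which compares them, gave -0.08 and no call. The untreated TNFRSF10A call was lost without S100A16 KD untreated 3 or any 1 WT library (adjusted p = 0.0552 to 0.0952).

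TNFRSF10D encodes a TRAIL receptor with a truncated death domain, which binds the ligand and does not pass on the death signal. It had 9.47, 9.97 and 9.91 CPM in the H2O2-treated KD, against 27.5, 27.3 and 26.3 CPM in H2O2-treated WT, and 8.99, 10.9 and 9.14 CPM in the untreated KD, against 26.3, 27.4 and 28.7 CPM in untreated WT. The KD libraries were all at about the same low level, 0.362 times the WT mean under H2O2 and 0.352 times untreated. Its log2 fold changes, -1.47 ± 0.08 and -1.50 ± 0.08, had the smallest adjusted p of the 34 genes in both comparisons (2.83e-12 and 1.66e-12).

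Further along the death pathway, TP53INP1, a stress-induced gene of apoptosis and autophagy, had 14.8, 14.4 and 16.4 CPM in the H2O2-treated KD, against 5.25, 5.35 and 4.37 CPM in H2O2-treated WT, and 15.6, 16.5 and 15.0 CPM in the untreated KD, against 7.10, 5.68 and 4.73 CPM in untreated WT. All KD libraries were above all WT libraries (log2 fold change 1.60 ± 0.27, adjusted p = 0.000163, and 1.42 ± 0.26, adjusted p = 0.000369). CYFIP2, which encodes a subunit of the actin-regulating WAVE complex, had 98.6, 87.6 and 93.4 CPM in the H2O2-treated KD, against 39.5, 40.9 and 36.2 CPM in H2O2-treated WT, and 94.8, 103 and 101 CPM in the untreated KD, against 38.8, 37.9 and 35.3 CPM in untreated WT. These groups did not overlap either, with log2 fold changes of 1.26 ± 0.10 (adjusted p = 3.63e-09) and 1.42 ± 0.10 (adjusted p = 6.85e-10). ZMAT3, an RNA-binding zinc finger gene, rose by 0.90 and 1.00, TP53I11 by 0.81 and 0.71, and PHLDA3, whose product opposes AKT, by 0.70 and 0.64. TRIAP1, an inhibitor of apoptosis, was called untreated alone, at 0.20. Under H2O2 it averaged 35.1 ± 1.13 CPM in the KD and 36.1 ± 0.388 CPM in WT (SD, n = 3 each), and its interaction was not called. TP53I3 and RPS27L were lower in both comparisons, TP53I3 by -0.41 and -0.47 and RPS27L by -0.22 and -0.18. Under scaling by total counts alone, the untreated RPS27L value was 0.060 (adjusted p = 0.529) and the TP53I3 values were both -0.23 (adjusted p = 0.281 and 0.279). Under H2O2 the RPS27L value was -0.036 (adjusted p = 0.713) and that of MDM4 -0.023 (adjusted p = 0.818). AEN, an apoptosis-enhancing nuclease gene, was not called, at -0.10 and -0.14, but was lower untreated without S100A16 KD untreated 3 (-0.23, adjusted p = 0.0350).

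Several of the smaller differences in these death genes rested on single libraries. The untreated PHLDA3 call was lost without any 1 of the 6 libraries (adjusted p = 0.0513 to 0.0844), and under H2O2 without S100A16 KD H2O2 1 or WT H2O2 1 or 2 (0.0503 to 0.0635). RPS27L was not called untreated without S100A16 KD untreated 3 or WT untreated 1 or 3 (adjusted p = 0.0514 to 0.0963), and TRIAP1 without S100A16 KD untreated 3 or WT untreated 2 (0.0611 and 0.0748). TP53I3 was not called untreated without WT untreated 3 (adjusted p = 0.0522), and under H2O2 without S100A16 KD H2O2 1 or 2 or WT H2O2 2 or 3 (0.0525 to 0.0687).

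The sestrin genes parted in the S100A16 KD. SESN2, which restrains mTORC1 under stress, had 17.8, 16.3 and 18.4 CPM in the H2O2-treated KD, against 6.23, 6.85 and 8.37 CPM in H2O2-treated WT, and 17.7, 18.3 and 19.02 CPM in the untreated KD, against 8.29, 7.93 and 7.74 CPM in untreated WT. The KD libraries were all high (log2 fold change 1.30 ± 0.35, adjusted p = 0.00771, and 1.20 ± 0.35, adjusted p = 0.0107). Its relative SESN1 averaged 6.61 ± 0.471 CPM in the H2O2-treated KD, against 10.3 ± 0.492 CPM in H2O2-treated WT, and 7.18 ± 0.656 CPM in the untreated KD, against 11.4 ± 0.688 CPM in untreated WT (SD, n = 3 each). The SESN1 log2 fold changes were -0.64 (adjusted p = 0.000162) and -0.66 (adjusted p = 7.94e-05). FDXR, the ferredoxin reductase gene, rose by 0.24 in both comparisons (adjusted p = 0.0633 untreated without WT untreated 3), and TIGAR, which diverts sugar from glycolysis, was not called at 0.29 and 0.28, although its KD and WT libraries did not overlap.

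SPATA18 was near the lower end of detection. It had 1.62, 0.883 and 1.41 CPM in the H2O2-treated KD, against 0.319, 0.230 and 0.0875 CPM in H2O2-treated WT, and 1.14, 0.942 and 0.994 CPM in the untreated KD, against 0.137, 0.386 and 0.615 CPM in untreated WT. The WT values rest on 3 to 27 counts per library. Its log2 fold change was 2.57 ± 0.63 under H2O2 (adjusted p = 0.00273) and 1.42 ± 0.58 untreated (adjusted p = 0.0493), and the untreated call was lost without any 1 library other than WT untreated 3 (adjusted p = 0.0775 to 0.182). Over both comparisons, 20 of the 29 untreated calls and 21 of the 26 calls under H2O2 were kept in every fit with 1 library left out; without S100A16 KD untreated 1, 20 genes were higher and 5 lower, where 46.3% of all 23001 genes tested in that fit were called, 24.4% higher and 21.9% lower.

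In the hnRNPM KD, 17 of the 34 genes were higher than in untreated WT and 5 lower, with a median log2 fold change of 0.33, against 0.02 over all genes tested. Among all genes 49.1% were called, 25.4% higher and 23.8% lower. Scaling by total counts alone, a shift of 0.11, gave 19 higher and 3 lower, and the higher share of all calls was 63.1% in place of 51.6%. BTG2 changed most. It had 68.7, 86.5 and 125 CPM in the hnRNPM KD, against 24.0, 23.7 and 24.2 CPM in untreated WT, so that even the lowest KD library was well above WT (log2 fold change 1.962 ± 0.32, adjusted p = 0.000207). GADD45A had 58.5, 68.4 and 96.9 CPM in the hnRNPM KD, against 32.4, 34.2 and 32.0 CPM in untreated WT, with no overlap (1.18 ± 0.30, adjusted p = 0.00511).

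MDM2 and CDKN1A did not pass the test in the hnRNPM KD. MDM2 had 96.6, 106 and 150.3 CPM in the hnRNPM KD, against 127, 128 and 121 CPM in untreated WT, a log2 fold change of -0.09 with a 95% interval of -0.44 to 0.26. CDKN1A had 14.7, 16.1 and 29.5 CPM in the hnRNPM KD, against 27.7, 28.8 and 27.3 CPM in untreated WT. For both genes KD replicates 1 and 2 were below all WT libraries and KD replicate 3 above them. The CDKN1A log2 fold change was -0.47 ± 0.26 (adjusted p = 0.165) with all libraries and -0.86 (adjusted p = 0.00992) without hnRNPM KD 3.

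Other genes of the hnRNPM KD that moved in step with the S100A16 KD were CYFIP2 and PLK2. CYFIP2 had 62.7, 66.1 and 87.6 CPM in the hnRNPM KD, against 38.8, 37.9 and 35.3 CPM in untreated WT (log2 fold change 0.95 ± 0.10, adjusted p = 1.83e-07). PLK2 had 151, 162 and 233 CPM in the hnRNPM KD, against 94.7, 97.6 and 94.9 CPM in untreated WT (0.92 ± 0.20, adjusted p = 0.00179). In both cases the 3 KD libraries were all above WT. SESN2 had 12.3, 11.8 and 21.2 CPM in the hnRNPM KD, against 8.29, 7.93 and 7.74 CPM in untreated WT (0.92 ± 0.35, adjusted p = 0.0435), and SPATA18 had 1.03, 0.761 and 2.05 CPM, against 0.137, 0.386 and 0.615 CPM (1.76 ± 0.57, adjusted p = 0.0171). Both calls were lost without hnRNPM KD 3, where SESN2 was 0.59 (adjusted p = 0.222) and SPATA18 1.24 (adjusted p = 0.1098). The SESN2 call was also lost without any 1 WT library (adjusted p = 0.0883 to 0.104), and the SPATA18 call without WT untreated 1 (0.0752) or 2 (0.0512).

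Other members went against the S100A16 KD. TNFRSF10D had 48.9, 50.3 and 58.5 CPM in the hnRNPM KD, against 26.3, 27.4 and 28.7 CPM in untreated WT, so the decoy receptor gene was higher in all 3 libraries (log2 fold change 0.93 ± 0.08, adjusted p = 1.20e-09). ZMAT3 had 6.45, 6.62 and 9.69 CPM in the hnRNPM KD, against 13.7, 13.5 and 14.9 CPM in untreated WT, lower in all 3 libraries (-0.88 ± 0.17, adjusted p = 0.000457). MDM4 and SESN1 rose by 0.52 and 0.73, and TP53INP1 averaged 3.22 ± 1.69 CPM in the hnRNPM KD, against 5.84 ± 1.19 CPM in untreated WT (SD, n = 3 each; log2 fold change -0.85, adjusted p = 0.0243). The TP53INP1 libraries of the 2 groups overlapped; without hnRNPM KD 3 its value was -1.37 (adjusted p = 0.000161), and its adjusted p was 0.0751 without hnRNPM KD 1, 0.0770 without hnRNPM KD 2 and 0.0964 without WT untreated 1. Under scaling by total counts alone the TP53INP1 value was -0.73 (adjusted p = 0.0598).

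Of the remaining genes of the hnRNPM KD, PLK3, POLH, TRIAP1, TNFRSF10A, TNFRSF10B, TP53I11, TIGAR and FBXO22 were called higher, with log2 fold changes of 0.22 for FBXO22 to 0.87 for PLK3. TP53I3 was lower by -0.70, RPS27L by -0.39 and XPC by -0.19, and the XPC value was -0.08 (adjusted p = 0.337) under scaling by total counts alone. FAS, EDA2R, PHLDA3, RRM2B, FDXR, AEN, CCNG1, SERTAD1, PPM1D and DDB2 were not called, with values of -0.16 for DDB2 to 0.41 for PHLDA3. Without hnRNPM KD 3, 10 genes were higher and 7 lower, 50% of the 34, and 15 of the 22 calls were kept. In that fit 43.4% of all 22966 genes tested were called, 22.0% higher and 21.4% lower, so the share of the 34 genes was near that of all genes. The calls lost were those of PLK3 (0.65, adjusted p = 0.050004), POLH (0.19, adjusted p = 0.0917), TIGAR (0.37, adjusted p = 0.0506), TNFRSF10B (0.23, adjusted p = 0.0635) and TP53I11 (0.27, adjusted p = 0.204), beside SESN2 and SPATA18, and DDB2 became lower (-0.20, adjusted p = 0.0257). TP53I11 was also not called without any 1 WT library (adjusted p = 0.0563 to 0.109), and AEN was called higher without hnRNPM KD 1 (0.25, adjusted p = 0.0181).

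In the MagoHB KD, 21 of the 34 genes were higher than in untreated WT and 3 lower, with a median log2 fold change of 0.49, against 0.04 over all genes tested. Among all genes 45.5% were called, 23.3% higher and 22.3% lower. Scaling by total counts alone, a shift of 0.21, gave 23 higher and 1 lower, and the higher share of all calls was 74.7% in place of 51.1%. All 5 genes of metabolism and mitochondria rose. SESN2 had 13.9, 40.9 and 16.9 CPM in the MagoHB KD, against 8.29, 7.93 and 7.74 CPM in untreated WT, with KD replicate 2 far above the other KD replicates (log2 fold change 1.59 ± 0.35, adjusted p = 0.00217). SESN1 had 16.8, 23.3 and 17.6 CPM in the MagoHB KD, against 12.0, 11.5 and 10.6 CPM in untreated WT (0.76 ± 0.12, adjusted p = 1.45e-05). SPATA18 had 0.569, 2.75 and 1.29 CPM in the MagoHB KD, against 0.137, 0.386 and 0.615 CPM in untreated WT, and its groups overlapped (2.03 ± 0.56, adjusted p = 0.00722). Without MagoHB KD 2, SESN2 was 0.95 (adjusted p = 0.00202) and SPATA18 1.30 (adjusted p = 0.0456).

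PLK2 had 166, 318 and 190.3 CPM in the MagoHB KD, against 94.7, 97.6 and 94.9 CPM in untreated WT (log2 fold change 1.23 ± 0.20, adjusted p = 0.000235). CYFIP2 had 64.4, 79.1 and 68.1 CPM in the MagoHB KD, against 38.8, 37.9 and 35.3 CPM in untreated WT (0.92 ± 0.10, adjusted p = 4.01e-07). RRM2B had 35.6, 58.4 and 37.1 CPM in the MagoHB KD, against 24.3, 25.6 and 25.1 CPM in untreated WT (0.81 ± 0.16, adjusted p = 0.00101). For these 3 genes every KD library was above every WT library, and the calls were kept in every fit with 1 library left out; RRM2B was 0.54 (adjusted p = 0.000541) without MagoHB KD 2.

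GADD45A and BTG2 differed among the replicates of the MagoHB KD. GADD45A had 37.4, 102 and 44.9 CPM in the MagoHB KD, against 32.4, 34.2 and 32.0 CPM in untreated WT, and BTG2 had 26.5, 75.5 and 33.7 CPM, against 24.0, 23.7 and 24.2 CPM. In both genes KD replicate 2 was high and the other KD replicates were nearer WT, though above it. The GADD45A log2 fold change was 0.91 (adjusted p = 0.0240) with all libraries and 0.33 (adjusted p = 0.134) without MagoHB KD 2, and that of BTG2 was 0.92 (adjusted p = 0.0300) and 0.33 (adjusted p = 0.230). Leaving out any 1 WT library also ended both calls, at adjusted p = 0.0564 to 0.0774.

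MDM2 and CDKN1A were not called in the MagoHB KD. MDM2 had 92.8, 151 and 90.1 CPM in the MagoHB KD, against 127, 128 and 121 CPM in untreated WT (log2 fold change -0.17, adjusted p = 0.461). CDKN1A had 31.2, 57.9 and 29.9 CPM in the MagoHB KD, against 27.7, 28.8 and 27.3 CPM in untreated WT (0.51, adjusted p = 0.129). MDM2 was below WT in KD replicates 1 and 3 and above it in KD replicate 2, and without that library it was lower by -0.46 (adjusted p = 0.0140). The CDKN1A libraries of the MagoHB KD were all above WT, and without KD replicate 2 the difference was 0.13 (adjusted p = 0.692). Under scaling by total counts alone CDKN1A was called higher with all libraries (0.73, adjusted p = 0.0453).

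Among the other genes of the MagoHB KD, FDXR (log2 fold change 0.60), AEN (0.44), CCNG1 (0.46), TNFRSF10B (0.60), ZMAT3 (0.65), FBXO22 (0.36) and TRIAP1 (0.25) rose in every fit with 1 library left out, and ZMAT3 was 0.38 (adjusted p = 0.00627) without MagoHB KD 2. TNFRSF10A fell by 0.56 and XPC by 0.31, also in every such fit; the XPC value was -0.10 (adjusted p = 0.213) under scaling by total counts alone, where RPS27L was 0.012 (adjusted p = 0.909) in place of -0.20. MDM4 was called at 0.25 and lost its call without MagoHB KD 1 (adjusted p = 0.0524), and RPS27L lost its call without MagoHB KD 1 or 3 or WT untreated 1 (0.0614 to 0.0972). FAS, EDA2R, PHLDA3, TP53I11 and TIGAR were called higher with all libraries and not without MagoHB KD 2, where their adjusted p was 0.297, 0.0837, 0.109, 0.128 and 0.273. Leaving out single WT libraries also ended these calls, any 1 for FAS, PHLDA3 and TIGAR, WT untreated 2 or 3 for EDA2R and WT untreated 2 for TP53I11 (adjusted p = 0.0577 to 0.109). TP53INP1 (-0.59), PLK3 (0.60, called without MagoHB KD 1 or 3), TNFRSF10D (-0.06), TP53I3 (0.13), POLH (0.00), SERTAD1 (0.02), PPM1D (-0.09) and DDB2 (-0.10) were not called. Without MagoHB KD 2, 14 genes were higher and 6 lower, with a median log2 fold change of 0.26, against 0.02 over all genes. In that fit 39.2% of all 22880 genes tested were called, 18.9% higher and 20.2% lower. TP53INP1 (-0.89, adjusted p = 0.0346) and DDB2 (-0.19, adjusted p = 0.0131) were then lower.

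The p53 targets moved together within the replicates of 2 lines. In MagoHB KD 2, 32 of the 34 genes were higher than in both other MagoHB KD libraries (94.1%, against 42.6% of all genes tested), and 18 exceeded the mean of the other replicates by more than 1.5 times, as 11.5% of all genes did. Their median log2 ratio to the mean of the other replicates was 0.62, against 0.01 for all genes. In hnRNPM KD 3, 32 of 34 were likewise the highest of the group (94.1%, against 39.3% of all genes), with a median of 0.41, against 0.00 for all genes. In S100A16 KD untreated 1, which also stood apart, 23 of the 34 were the lowest of the group, against 35.4% of all genes. Their median was -0.07, against -0.01 for all genes. The 20 listed genes that p53 can repress through p21 and DREAM went the other way. All 20 were lowest in MagoHB KD 2 (median -0.87), against 39.6% of all genes. All 20 were also lowest in hnRNPM KD 3 (median -0.49), against 39.0% of all genes. What set these libraries apart is not given in the labels, and their part in the differences between lines was not tested beyond leaving them out.

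**Figure D3:**
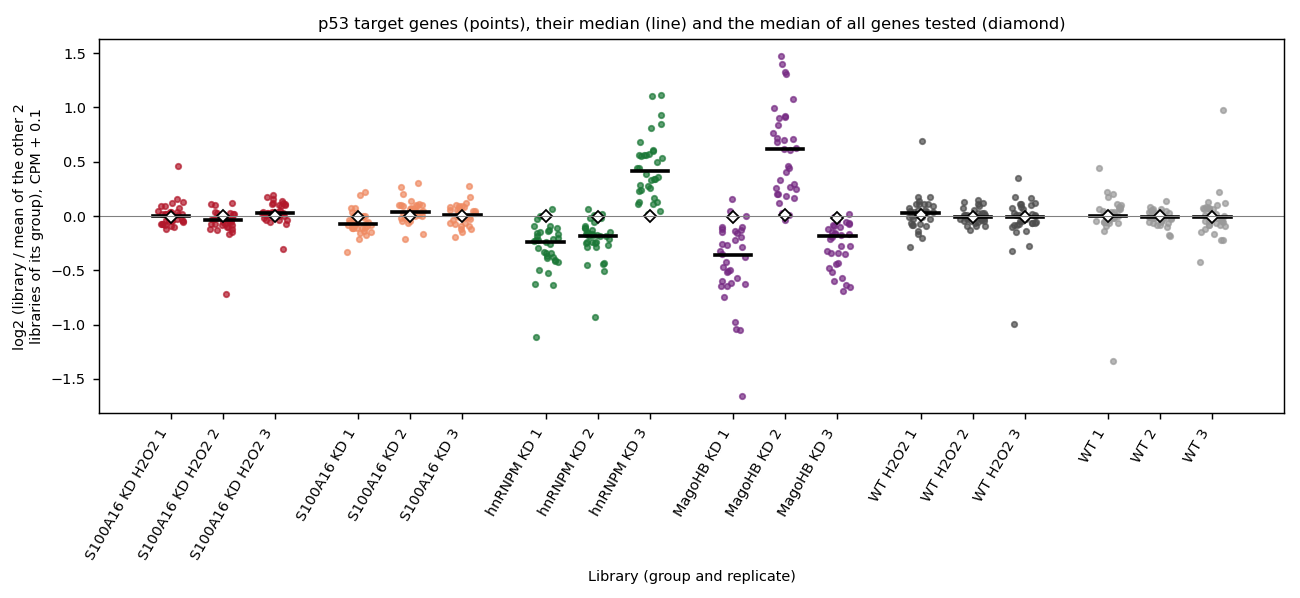
Log2 ratio of each library to the mean of the other 2 libraries of its group for the 34 p53 target genes (points), with their median (line) and the median of all genes tested (diamond). In MagoHB KD 2 and hnRNPM KD 3 the medians of the 34 genes stand at 0.62 and 0.41 while the medians of all genes stay at 0.01 and 0.00.

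The median coefficient of variation of the 34 genes was 4.33% for the untreated S100A16 KD, 17.3% for the hnRNPM KD, 26.9% in the MagoHB KD and 3.43% in untreated WT. All fits over the 6 groups share 1 estimate of the spread for each gene, so the spread of the hnRNPM and MagoHB groups enters the errors given for the S100A16 KD.

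Set side by side, 10 genes were higher in all 3 lines than in the untreated WT libraries that the 3 comparisons share: FBXO22, GADD45A, BTG2, PLK2, TNFRSF10B, TRIAP1, CYFIP2, TP53I11, SESN2 and SPATA18. Of all 22382 genes, 8.69% were likewise higher in all 3 and 8.21% lower. The calls of FBXO22, PLK2 and CYFIP2, 3 of the 10 genes, were kept in every fit with 1 library left out of all 3 comparisons. RPS27L was lower in all 3, and PPM1D, SERTAD1 and DDB2 were called in none. The RPS27L call was kept in every such fit in the hnRNPM KD alone. Scaling by total counts alone ended its calls in the S100A16 and MagoHB KDs, as given above. The lines were then compared with one another without WT, a step added after these values were seen. Between the S100A16 and hnRNPM KDs, 13 of the 34 genes were higher in the S100A16 KD and 7 lower, where 48.8% of all genes were called, 24.6% higher and 24.2% lower. Scaling by total counts alone, a shift of 0.12, gave 14 higher and 4 lower, with 62.9% of all calls higher in place of 50.4%. Between the S100A16 and MagoHB KDs, 7 were higher in the S100A16 KD and 7 lower, where 44.8% of all genes were called, 23.2% higher and 21.7% lower. Without MagoHB KD 2 this became 17 higher and 7 lower. With 1 library left out, all genes called ranged from 8785 to 10613, against 10029 with all libraries. Between the hnRNPM and MagoHB KDs, 6 were higher in the hnRNPM KD and 10 lower, where 44.5% of all genes were called, 22.3% higher and 22.2% lower, and scaling by totals, a shift of -0.10, gave 3 and 12, with 39.1% of all calls higher in place of 50.2%. This split turned on single libraries. It was 3 higher and 14 lower without hnRNPM KD 3, 12 and 5 without MagoHB KD 2, and 4 and 13 without MagoHB KD 1. Without hnRNPM KD 1 it was 6 and 5, and without hnRNPM KD 2 it was 6 and 6. In such fits all genes called ranged from 8793 to 10318, against 9963 with all libraries.

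TNFRSF10D separated the lines most. Its mean was 9.68 ± 1.07 CPM in the untreated S100A16 KD, 52.6 ± 5.16 CPM in the hnRNPM KD and 26.4 ± 0.500 CPM in the MagoHB KD (SD, n = 3 each), and it differed between every pair of lines (log2 fold change -2.44 for S100A16 over hnRNPM KD, adjusted p = 3.46e-16; -1.45 for S100A16 over MagoHB KD, adjusted p = 1.92e-12; 0.99 for hnRNPM over MagoHB KD, adjusted p = 3.78e-10). TP53INP1 was 15.7 ± 0.747 CPM in the S100A16 KD, against 3.22 ± 1.69 CPM in the hnRNPM KD and 3.84 ± 1.19 CPM in the MagoHB KD, log2 fold changes of 2.27 (adjusted p = 7.48e-06) and 2.02 (adjusted p = 2.17e-05). The S100A16 KD was the line with the high TP53INP1 level. ZMAT3 was 28.0 ± 1.68 CPM in the S100A16 KD, against 7.59 ± 1.82 CPM in the hnRNPM KD (1.88, adjusted p = 9.35e-08).

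SESN1 and CCNG1 were lower in the S100A16 KD than in the other lines. The SESN1 log2 fold change was -1.40 against the hnRNPM KD (adjusted p = 1.83e-09) and -1.42 against the MagoHB KD (adjusted p = 1.42e-09), and that of CCNG1 was -0.67 (adjusted p = 4.31e-06) and -1.18 (adjusted p = 1.10e-09). MDM2 was higher in the S100A16 KD than in either line, by 0.73 against the hnRNPM KD (adjusted p = 0.00345) and 0.81 against the MagoHB KD (adjusted p = 0.00178), with no overlap of libraries. CDKN1A was higher in the S100A16 KD than in the hnRNPM KD, by 1.38 (adjusted p = 0.000676); against the MagoHB KD the difference was 0.40, with a 95% interval of -0.10 to 0.90, and without MagoHB KD 2 it was 0.78 (adjusted p = 0.0106). TNFRSF10A was lower in the MagoHB KD than in both other lines, by a log2 fold change of 0.76 for S100A16 over MagoHB KD (adjusted p = 1.34e-08) and 1.00 for hnRNPM over MagoHB KD (adjusted p = 1.91e-10). The genes with a p53 element in the promoter windows printed above did not move alike either. SESN1 was lower in the S100A16 KD and higher in the other lines. FAS rose in the S100A16 KD and was 0.67 in the MagoHB KD and -0.05 in the hnRNPM KD. RPS27L was called lower in all 3, a call kept with any 1 library left out in the hnRNPM KD alone. AEN was called higher in the MagoHB KD and not in the others, and DDB2 was called in none.

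Hydrogen peroxide for 2 h left the 34 genes without a call. In the S100A16 KD, edgeR's quasi-likelihood test called 0 of 34 at an adjusted p under 0.05, 2 had an unadjusted p under 0.05, and 0.0134% of all genes were called. In WT, 0 of 34 were called, 1 had an unadjusted p under 0.05, and 0.223% of all genes were called. The interaction of the S100A16 KD with H2O2 was called for 0 of 34 genes, 1 with an unadjusted p under 0.05, and for 0.0938% of all genes. Of all 22382 genes tested, 1515 had an unadjusted p under 0.05 in the S100A16 KD, 1477 in WT and 1134 for the interaction. DESeq2's Wald test also called 0 of 34 in each. Median log2 fold changes of the 34 genes were -0.03 in the S100A16 KD and -0.02 in WT, against 0.01 and 0.00 over all genes tested.

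MDM2 had 193, 199 and 213 CPM after H2O2, against 190.3, 201 and 194 CPM untreated, in the S100A16 KD (log2 fold change 0.05, 95% interval -0.30 to 0.39), and 131, 124 and 129 CPM, against 127, 128 and 121 CPM, in WT (0.03, -0.32 to 0.38). CDKN1A changed by -0.08 (-0.58 to 0.42) in the S100A16 KD and by 0.13 (-0.38 to 0.64) in WT, and BTG2 by -0.18 (-0.78 to 0.42) and -0.09 (-0.72 to 0.54). These intervals include 0 and are wide for CDKN1A and BTG2. TRIAP1 had the smallest p in WT, with 36.2, 35.7 and 36.4 CPM after H2O2, against 32.1, 30.8 and 31.7 CPM untreated (log2 fold change 0.19, adjusted p = 0.443).

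GADD45A moved in opposite directions in the 2 lines, in every library. It had 84.7, 83.6 and 91.2 CPM after H2O2, against 74.7, 75.1 and 79.9 CPM untreated, in the S100A16 KD, and 28.9, 27.3 and 27.6 CPM, against 32.4, 34.2 and 32.0 CPM, in WT. The log2 fold changes were 0.18 ± 0.29 in the KD and -0.23 ± 0.30 in WT, and the interaction, 0.41 with a 95% interval of -0.41 to 1.23, was not called. In fits limited to the libraries compared, which leave out the wide hnRNPM and MagoHB groups, the GADD45A interaction was 0.39 (adjusted p = 0.000101), with 0.16 in the KD (adjusted p = 0.0175) and -0.23 in WT (adjusted p = 0.0100). TRIAP1 was then called in WT (0.20, adjusted p = 0.0238), BTG2 (-0.20, adjusted p = 0.0175) and POLH (-0.22, adjusted p = 0.0262) in the KD. With the 3 libraries that stood apart left out, the interaction was called for GADD45A (0.40, adjusted p = 0.0152) and PLK3 (-0.67, adjusted p = 0.0473). In both kinds of fit the calls over all genes rose as well, by counts given in the closing section. The member calls are to be read against that rise, and not all of them are named here.

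**Figure D4:**
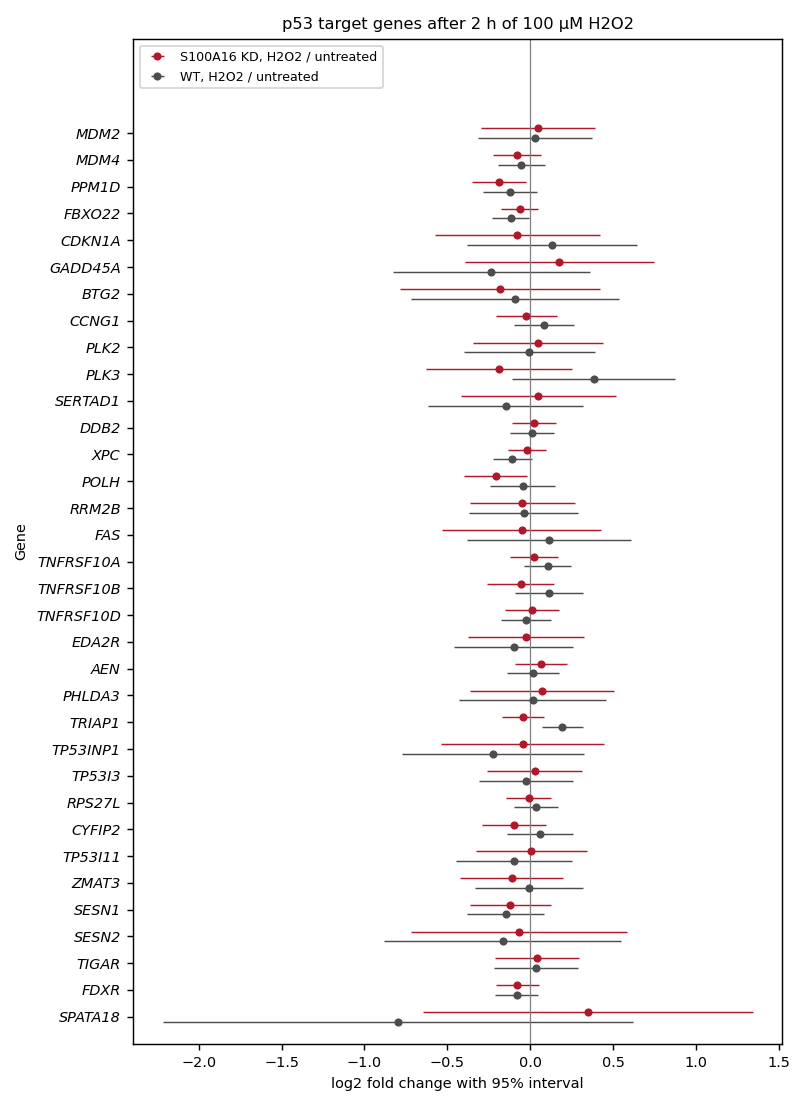
Log2 fold change after 2 h of 100 µM H2O2 with its 95% interval for the 34 p53 target genes, in the S100A16 KD (red, upper of each pair) and in WT (grey, lower). No gene is called in either line; the points of MDM2 are at 0.05 and 0.03, and those of GADD45A at 0.18 and -0.23 on either side of 0.

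Some genes whose products act on p53 also differed between the lines and untreated WT. Of 32 tested genes on a list of such regulators and p53 relatives, 6 were higher and 16 lower in the untreated S100A16 KD, 11 and 15 in the hnRNPM KD, and 7 and 15 in the MagoHB KD. Of all genes, 27.6% were called higher and 24.8% lower in the S100A16 KD, 25.4% and 23.8% in the hnRNPM KD, and 23.3% and 22.3% in the MagoHB KD. RCHY1, the gene of the p53 ubiquitin ligase PIRH2, was higher in all 3 lines, by log2 fold changes of 0.997 (S100A16 KD), 1.10 (hnRNPM KD) and 0.89 (MagoHB KD). The S100A16 KD also had more CHEK2 (0.84) and ATM (0.41), kinases of the DNA damage response, and less CHEK1 (-1.21), TP53BP2 (-0.79) and RPL5 (-0.85), which encodes a ribosomal protein that can bind MDM2. In the hnRNPM KD, KMT5A (0.61) and PPP1R13L (1.61), the gene of the p53 inhibitor iASPP, were higher, and SETD7 (-1.62) and CHEK1 (-1.11) lower. In the MagoHB KD, PPP1R13L (1.51) and RPL11 (0.33) were higher, and KMT5A (-1.02), SETD7 (-1.70) and SIRT1 (-0.49) lower.

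A second list held 38 tested p53 targets. In the untreated S100A16 KD 19 were higher and 6 lower (median log2 fold change 0.25), in the hnRNPM KD 17 and 10 (0.18), and in the MagoHB KD 14 and 3 (0.17). With 1 library left out these were 14 to 18 and 5 to 6, 11 to 18 and 7 to 10, and 12 to 18 and 2 to 3. In MagoHB KD 2, 31 of the 38 were the highest of the group, against 42.6% of all genes. In hnRNPM KD 3 this held for 27, against 39.3% of all genes. With all libraries the share of the list called was 65.8%, 71.1% and 44.7% for the S100A16, hnRNPM and MagoHB KDs. The shares of all genes were 52.3%, 49.1% and 45.5%, so with directions pooled the MagoHB KD share was near that of all genes. By direction, 50%, 44.7% and 36.8% of the list were higher, against 27.6%, 25.4% and 23.3% of all genes. The lower shares were 15.8%, 26.3% and 7.89%, against 24.8%, 23.8% and 22.3% of all genes. The lysosomal fucosidase gene FUCA1 was higher in the S100A16 KD by 1.10, PGPEP1 by 0.65 and CES2 by 0.85, while PERP, a gene of cell adhesion and death, was lower by -0.79, EI24 by -0.37 and CDIP1 by -1.24. In the hnRNPM KD, APAF1 (0.59), the core of the apoptosome, the decoy receptor gene TNFRSF10C (1.36) and PGPEP1 (0.58) were higher, and TOB1 (-1.81), EI24 (-0.55) and PERP (-0.70) lower. In the MagoHB KD, FAM210B (0.74), TRAF4 (0.60) and SUSD6 (0.88) were higher, and all 3 genes called lower were TOB1 (-1.62), CMBL (-0.33) and CDIP1 (-0.50).

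The listed genes that p53 can repress through p21 and DREAM were mostly lower in every untreated line than in untreated WT. Of 20 tested, 19 were lower and 0 higher in the untreated S100A16 KD (median log2 fold change -0.97). The hnRNPM KD had 19 and 0 (-0.83), and the MagoHB KD 15 and 0 (-0.64). Of all genes 24.8%, 23.8% and 22.3% were called lower in the same order. With 1 library left out, 18, 18 to 19 and 14 to 17 were lower and 0 higher. With all libraries CDKN1A was called higher in the untreated S100A16 KD (0.91). It was not called in the hnRNPM KD (-0.47) or the MagoHB KD (0.51). Without hnRNPM KD 3, CDKN1A was called lower in the hnRNPM KD (-0.86, adjusted p = 0.00992). Without MagoHB KD 2 it was 0.13 in the MagoHB KD and not called (adjusted p = 0.692). Whether p21 had a part in the lower levels of the listed genes was not tested. The mitotic kinase gene AURKA had 13.6 CPM in the S100A16 KD and 28.4 CPM in the MagoHB KD, against 72.7 CPM in untreated WT (log2 fold change -2.42 and -1.36). The cyclin genes were lower as well, CCNA2 by -1.60 in the S100A16 KD and -1.30 in the hnRNPM KD and CCNB1 by -1.09 in the MagoHB KD, as were CDC25C in the S100A16 KD (-0.77) and MagoHB KD (-0.50) and CKS1B (-1.53) and KIF23 (-0.999) in the hnRNPM KD. Neither of these lists had a call after H2O2 in either line by edgeR. In the S100A16 KD, 1 of the 38 further targets and 0 of the 20 genes on the p21 and DREAM list had an unadjusted p under 0.05, and in WT 6 and 0. Of all 22382 genes tested, 1515 had such a p in the S100A16 KD and 1477 in WT.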

How the data were processed

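Per the labels, mRNA was purified with oligo(dT) beads from TRIzol RNA. The authors deposited whole-number counts per gene for 18 libraries and RPKM values, which equalled counts over exon length and total for 100% of 531539 values (relative tolerance 0.001). The submitters' processing notes list HISAT2 2.2.1 and StringTie 2.1.4 beside FastQC 0.11.9, DESeq2 1.32.0 and SAMtools 1.15.1, on build GRCh38 (hg38). Which program counted, with which annotation and strand setting, is not stated there. Exons of another feature overlap 23.8% of XPC, 19.1% of PHLDA3, 16.2% of FBXO22, 10.1% of FAS and 9.01% of TNFRSF10A. Further features overlap XPC by 8.61% and 6.63% and TNFRSF10A by 7.59%. The PHLDA3 overlap is on the same strand, and the others named are on the opposite strand. With the strand setting not stated, these counts may include other transcripts, and RPS27L may share reads with RPS27. Only 18.6% to 22.0% of a library's counts from 1 to 19 were odd, and each mate may have been counted on its own; halved counts were tried.

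The test was edgeR 4.0.16 (R 4.3.3; robust quasi-likelihood F test, TMM, filterByExpr, 1 mean per group over 18 libraries), after a check on simulated data. Benjamini-Hochberg adjustment ran over 22382 genes, with calls under 0.05; errors of log2 fold changes are SE, and 95% intervals are normal ones. Promoter sequences come from RefSeq. The labels name 3 biological replicates per group and no batch. How the replicates were grown is not stated, so p-values measure the spread between these libraries, and the source of that spread was not tested. Ratios of a library to its replicates used CPM plus 0.1. Alternatives were total-count and RLE scaling, DESeq2 1.42.0, no filter, only the groups compared, halved counts, a replicate block and leaving out libraries; leaving out all 3 libraries that stood apart and comparing lines with one another were added after seeing the data. All 34 members were named; called members had per-library values in order of fold change, at most 8 per comparison, as did MDM2, CDKN1A, GADD45A and BTG2, and from the other lists up to 3 called genes of each direction with the smallest adjusted p per untreated line. A result on 1 further gene is not reported here. The members and lists were chosen with earlier results of these data known. Per-sample columns left unused numbered 0.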

Additional observations from a re-analysis of the deposited data

How the results depend on the processing

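The 34 genes were refitted under each alternative. Member calls were within 1.5 times of the reported counts for the 4 comparisons of a line with WT under every alternative. With 1 library left out, the number of calls, gained ones included, was 22 to 25 for the untreated S100A16 KD (29 with all libraries), 21 to 24 under H2O2 (26), 17 to 22 for the hnRNPM KD (22) and 17 to 24 for the MagoHB KD (24). All genes called were then 10523 to 10658 (11713 with all libraries), 10524 to 10684 (11759), 9818 to 10570 (10999) and 8912 to 10387 (10193). Of the member calls made with all libraries, each such fit kept 22 to 25, 21 to 24, 15 to 21 and 17 to 23 in the same order. In every one of these fits 20, 21, 14 and 15 were kept. Leaving out all 3 libraries that stood apart gave 31, 30, 28 and 26 calls in the same order, with 10 lower in hnRNPM KD and 6 in MagoHB KD, in place of 5 and 3. Fits to the groups compared alone gave 32, 30, 24 and 16. The matching calls over all genes for these comparisons with WT are not given here. For the H2O2 response of WT, that of the S100A16 KD and their interaction, member calls were 2, 3 and 2 in fits to the groups compared alone. Without the 3 libraries they were 2, 1 and 2, in place of 0. For the same 3, all genes called were 50, 3 and 21. DESeq2 gave 104, 75 and 38, no filter 85, 25 and 45, the groups compared alone 555, 801 and 256, and leaving out the 3 libraries 417, 364 and 190. With 1 library left out they were 40 to 44, 3 to 7 and 13 to 17. Between lines, the 14 S100A16 against MagoHB KD calls ranged from 13 to 24, the highest without MagoHB KD 2, and were 26 without the 3 libraries. There, PHLDA3 ranged from -0.21 to 0.38 with 1 library left out, the highest without MagoHB KD 2, and was 0.33 without the 3 libraries, SESN2 to 0.25 and TIGAR to 0.18. The 16 hnRNPM against MagoHB KD calls were 6 in the groups compared alone, 26 without the 3 libraries and 11 to 17 with 1 library left out; the 20 S100A16 against hnRNPM KD calls were 16 to 20. By total counts alone, MDM4 (0.054) and RPS27L (0.060) turned in the untreated S100A16 KD and RPS27L (0.012) in MagoHB KD; that scaling shifts all genes alike. Other causes were not tested. Same-numbered libraries did not deviate together (r from -0.02 to 0.02), so numbers were not taken as pairs. With replicate number as a block, member calls were 27, 27, 22 and 24 for the lines against WT and 0 for H2O2 and the interaction. The groups hold 3 libraries each, and SPATA18 rests on low counts.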
